A study of Rattus norvegicus with 16 samples.

Results

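Antigen presentation by MHC class I was followed through 10 rat genes, B2m, Tap1, Tap2, Tapbp, Psmb8, Psmb9, Psmb10, Nlrc5, Erap1 and Psme1. They were found by gene symbol in the deposited count table, where each of the 10 was present once, so 10 of 32623 genes are followed here. Class I molecules carry short peptides from the inside of a cell to its surface, where CD8 T cells read them. The proteasome cuts proteins into peptides, the transporter formed by Tap1 and Tap2 moves these into the endoplasmic reticulum (ER), aminopeptidases trim them, and the loading complex places them on a heavy chain bound to B2m. Most nucleated cells run this pathway at a basal level, interferon-γ is its classical inducer, and tubular epithelial cells of the kidney raise it during inflammation.

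The RNA came from 2 rat kidney cell lines kept in indirect co-culture. NRK-52E is an epithelial line derived from the proximal tubule and grew on filter inserts, and NRK-49F is a kidney fibroblast line and grew on the bottom of the same wells. After 24 h without serum, the shared medium was set to pH 7.4 or pH 6.0 for 48 h, which the sample labels shorten to pH 7 and pH 6. Each of the 4 groups, NRK-52E pH 7.4, NRK-52E pH 6.0, NRK-49F pH 7.4 and NRK-49F pH 6.0, had 4 libraries of poly(A)-enriched RNA. Both pH groups of a cell line shared the co-culture partner and the serum-free period, so acidosis of the medium was the labelled difference between them. The libraries held 16201084 to 34784862 counted fragments, and 22082 genes were counted at all. Libraries carry numbers from 1 to 16, with 1, 2, 5 and 6 in NRK-52E pH 7.4, 3, 4, 7 and 8 in NRK-52E pH 6.0, 9, 10, 13 and 14 in NRK-49F pH 7.4 and 11, 12, 15 and 16 in NRK-49F pH 6.0, and values are given in this order.

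The labelled cell types were compared with marker genes, with levels given as fragments per 1000000 counted (FPM). Markers named beside the one with the highest FPM of its list were chosen after their values were seen. Of 12 epithelial markers, 5 reached a mean of 1 FPM in NRK-52E pH 7.4, with Krt8 as the highest at 430 FPM. Their summed level in the 4 libraries was 542, 503, 470 and 536 FPM, and it was 377, 311, 347 and 334 FPM in NRK-52E pH 6.0. The adhesion genes Cdh1 and Epcam had means of 1.62 and 0.0221 FPM in NRK-52E pH 7.4, and Krt8 averaged 848 FPM in NRK-49F pH 7.4 and 206 FPM in NRK-49F pH 6.0. The epithelial sum there ranged from 786.3 to 950.8 FPM at pH 7.4 and from 199.6 to 220.5 FPM at pH 6.0. Ocln and Krt7 averaged 41.1 and 36.7 FPM in NRK-52E pH 7.4 and 0 and 0.463 FPM in NRK-49F pH 7.4. Of 8 proximal tubule markers, 3 reached 1 FPM in NRK-52E pH 7.4, with Aqp1 at 34.4 FPM and no counts of Slc34a1 or Slc22a6, while Ggt1 led in NRK-49F with 112 FPM at pH 7.4 and 413 FPM at pH 6.0.

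Of 12 fibroblast markers, 9 reached 1 FPM in both NRK-49F groups, while Thy1 had no counts in any library. In NRK-52E the summed fibroblast list was 6444, 6396, 6290 and 6208 FPM at pH 7.4 and 3220, 3018, 2631 and 1876 FPM at pH 6.0, with Col3a1 as the gene with the highest FPM. The genes of this list differed in direction between the lines. At pH 6.0, Col1a1 averaged 18.0 FPM in NRK-52E against 8288 FPM in NRK-49F, Pdgfra 0.0561 against 368 FPM and Pdgfrb 16.3 against 21.8 FPM, while Col3a1 averaged 2630 against 53.9 FPM. Of 10 leukocyte markers, Ptprc, Ms4a1 and Nkg7 had no counts in any group. The leukocyte sum was 97.6, 84.6, 76.9 and 78.2 FPM in NRK-52E pH 7.4 and 67.8, 77.7, 69.4 and 109 FPM in NRK-52E pH 6.0, led by Cd14. In NRK-49F it ranged from 340 to 382 FPM at pH 7.4, led by Cd14, and from 352 to 390 FPM at pH 6.0, led by Cd68. Of the endothelial list, Kdr had no counts in any group, Tek led in NRK-52E with 41.1 FPM at pH 7.4 and 7.02 FPM at pH 6.0, Vwf led in NRK-49F with 7.01 and 2.78 FPM, and Pecam1 was not analysed here. The part of these marker levels in the results that follow was not tested.

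Differentially expressed genes (DEGs) passed a false discovery rate (FDR) of 0.01 in the same direction in edgeR and in DESeq2, after adjustment of the p-values over the genes tested in each comparison. Of the 10 genes, 9 passed edgeR's filter on low counts in each comparison, and Psme1 did not. Fold changes and standard errors (SE) are edgeR's. The labels do not say that the 4 libraries of a group came from separate cultures, so the p-values measure the spread between these libraries. In bulk RNA, fewer cells with a transcript and less of it per cell cannot be told apart. A further number in the deposited library names splits NRK-52E into sets 21 (libraries 1 to 4) and 22 (5 to 8), and NRK-49F into sets 20 (9 to 12) and 21 (13 to 16), each with 2 libraries per pH. What it stands for is not given, and fits within these sets are given beside some of the pooled ones.

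The first comparison asked how acidosis of the medium changes the epithelial line in co-culture. In NRK-52E, 7 of the 9 tested genes rose at pH 6.0, namely Tap1, Psmb8, Psmb9, Tap2, B2m, Tapbp and Erap1. Over all 13735 genes tested, 28.2% rose and 28.5% fell, so a call in either direction was common. The remaining members, Psmb10 and Nlrc5, also had positive fold changes but were not DEGs, and no tested member had a negative one. The median log2 fold change of the 9 genes was 1.06, and that of all genes tested was 0.00.

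In NRK-49F under the same medium, 2 of the 9 tested genes, Erap1 and Tapbp, rose at pH 6.0 and 1, Psmb10, fell. Over all 13339 genes tested, 18.4% rose and 19.4% fell. The other 6 were not DEGs, with log2 fold changes between −0.09 for B2m and 0.28 for Tap1. Their median over the 9 genes was 0.19, and that of all genes tested was 0.00.

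**Figure D1:**
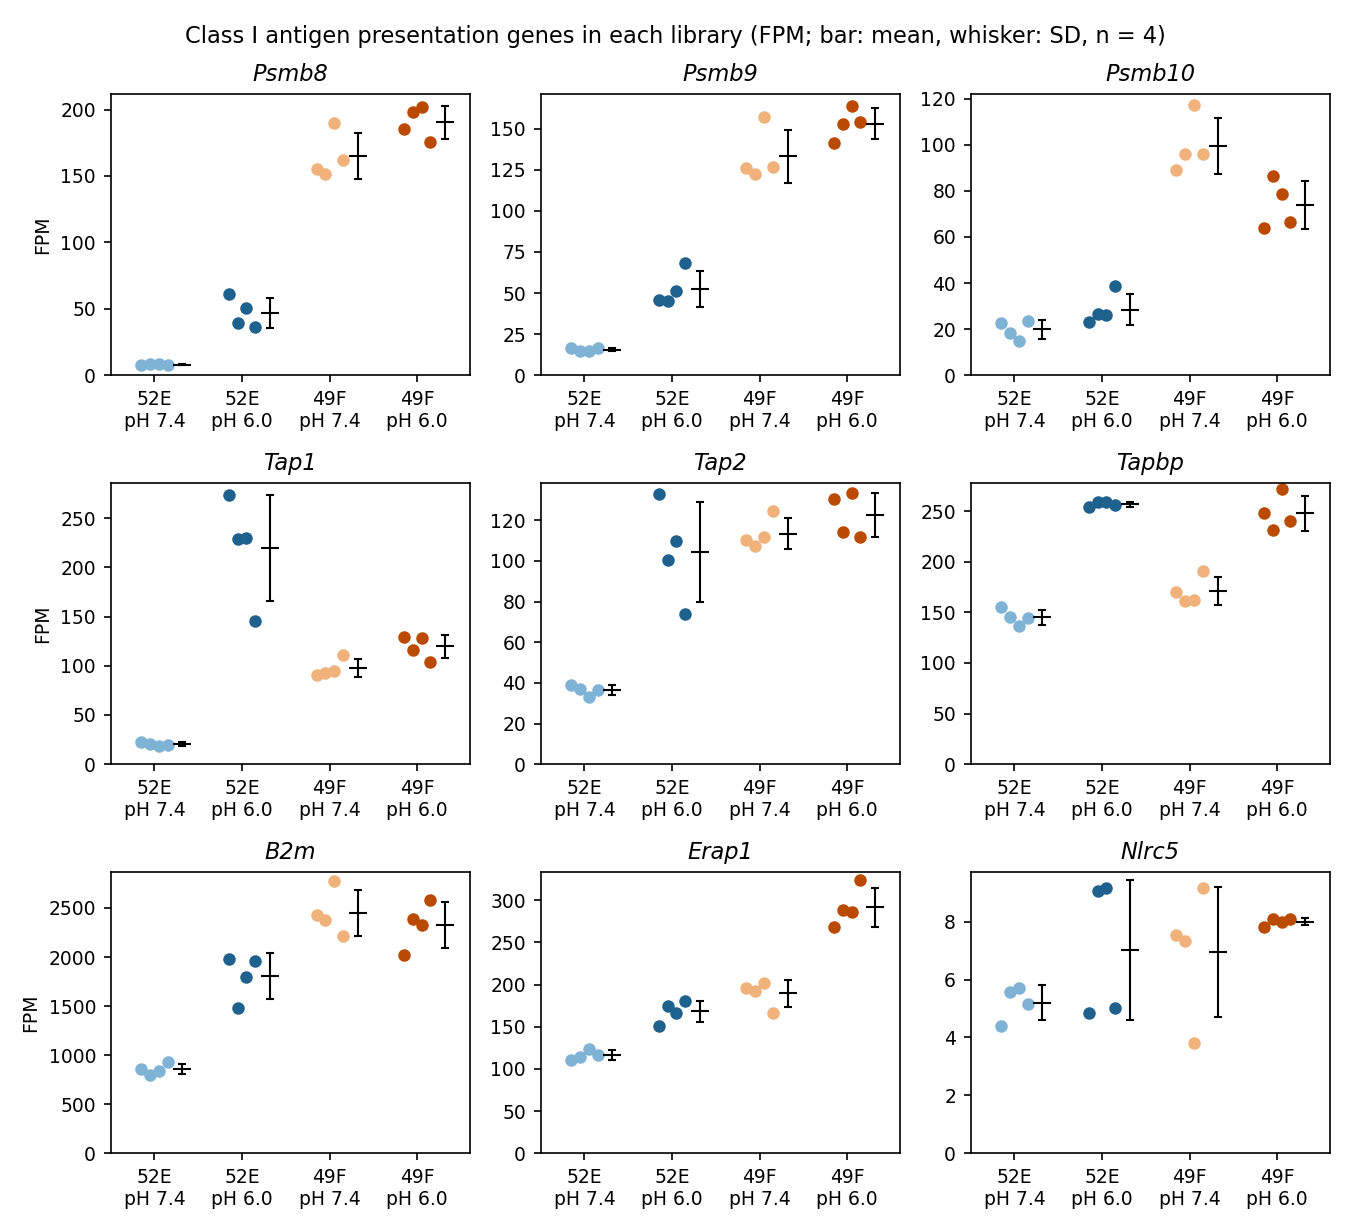
FPM (vertical axes, from 0) of 9 genes in the 4 libraries of each group, with the mean (bar) and SD (whisker) beside the points. Tap1 lies at 18.7 to 23.0 FPM in NRK-52E pH 7.4 and at 145 to 273 FPM in NRK-52E pH 6.0, above the 104 to 129 FPM of NRK-49F pH 6.0.

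The immunoproteasome genes Psmb8, Psmb9 and Psmb10 encode inducible catalytic subunits that replace Psmb5, Psmb6 and Psmb7 and favour peptides that class I molecules bind. Psmb8 (ENSRNOG00000000456) was at 7.59, 8.40, 8.21 and 7.71 FPM in NRK-52E pH 7.4 and at 61.0, 39.3, 50.9 and 36.3 FPM in NRK-52E pH 6.0. The groups did not overlap, and the 8 libraries held between 162 and 1242 fragments of this gene. Psmb8 rose 5.79-fold (log2 2.53, SE 0.18, edgeR adjusted p = 6.34e-07, n = 4 per group), with log2 values of 2.61 within set 21 and 2.43 within set 22. In NRK-49F, Psmb8 was at 156, 152, 190 and 162 FPM at pH 7.4 and at 185, 198, 202 and 176 FPM at pH 6.0. These groups overlapped, because library 13 at pH 7.4 lay above libraries 11 and 16 at pH 6.0. The log2 difference was 0.19 (SE 0.10, edgeR adjusted p = 0.122), and it was 0.32 within set 20, where it passed both tools (edgeR adjusted p = 0.00876, with a range of 0.00876 to 0.765 over the alternatives), and 0.08 within set 21.

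Psmb9 (ENSRNOG00000000459), whose product is the inducible counterpart of Psmb6, was at 16.3, 14.54, 14.6 and 16.4 FPM in NRK-52E pH 7.4 and at 45.7, 44.9, 51.2 and 68.1 FPM in NRK-52E pH 6.0. Library 8 was the highest of the acidic group for Psmb9 and the lowest for Psmb8. Psmb9 rose 3.36-fold (log2 1.75, SE 0.15, edgeR adjusted p = 2.87e-06), by 1.517 within set 21 and 1.93 within set 22 on the log2 scale. Levels in NRK-49F were 126, 122, 157 and 127 FPM at pH 7.4 and 141, 153, 164 and 154 FPM at pH 6.0. The groups overlapped through library 13 at pH 7.4, and the log2 difference of 0.18 (SE 0.10) did not pass (edgeR adjusted p = 0.141).

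Psmb10 (ENSRNOG00000019494) encodes the inducible counterpart of Psmb7. In NRK-52E, Psmb10 was at 22.8, 18.4, 14.8 and 23.7 FPM at pH 7.4 and at 22.9, 26.5, 26.0 and 38.6 FPM at pH 6.0. The groups overlapped, and the log2 difference of 0.50 (SE 0.20) was not a DEG call (edgeR adjusted p = 0.0407), with 0.22 within set 21, 0.73 within set 22 and 0.312 without library 8. In NRK-49F, Psmb10 was at 88.9, 96.1, 117 and 95.9 FPM at pH 7.4 and at 64.0, 86.6, 78.5 and 66.6 FPM at pH 6.0. The groups did not overlap, and Psmb10 fell by 0.45 on the log2 scale (SE 0.12, edgeR adjusted p = 0.00971), just inside the threshold. That call was lost under 14 of 19 other settings. Without library 9, 10, 11, 13, 14, 15 or 16 the edgeR adjusted p was 0.0103, 0.0199, 0.0307, 0.0256, 0.0155, 0.0212 and 0.0272, and within sets 20 and 21 it was 0.0832 and 0.0348, against 0.00455 without library 12. The log2 values ran from −0.536 to −0.35 with single libraries left out and were −0.298 and −0.573 within sets 20 and 21. With the further number as a covariate the call was also lost, at −0.443 (edgeR adjusted p = 0.0124).

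Psme1 (ENSRNOG00000019041, chromosome 15), which encodes the alpha subunit of the PA28 proteasome activator, had 0 to 7 fragments per library. Its counts were 3, 4, 1 and 4 in NRK-52E pH 7.4, 7, 1, 0 and 2 in NRK-52E pH 6.0, 0, 3, 2 and 5 in NRK-49F pH 7.4 and 0, 0, 2 and 3 in NRK-49F pH 6.0. No fold change was computed from counts this low, and whether the gene model counted here is the expressed one was not tested. Psme2, the beta subunit that assembles with it, was at 97.7, 82.8, 68.0 and 88.6 FPM in NRK-52E pH 7.4 and at 188, 148, 164 and 183 FPM in NRK-52E pH 6.0. Psme2 rose in NRK-52E (log2 1.004, SE 0.13, edgeR adjusted p = 3.83e-05) and had a log2 difference of −0.23 in NRK-49F (SE 0.12, edgeR adjusted p = 0.123).

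The constitutive subunits also moved, so each inducible subunit was divided by its counterpart within each library, which does not depend on the scaling of libraries. Psmb5, Psmb6 and Psmb7 rose in NRK-52E by 0.68, 1.26 and 0.78 on the log2 scale (edgeR adjusted p = 0.00406, 1.56e-05 and 0.00025). In NRK-49F their log2 differences were −0.07, 0.25 and 0.06, outside the threshold (edgeR adjusted p = 0.618, 0.138 and 0.696). The FPM ratio of Psmb8 to Psmb5 in NRK-52E was 0.0899, 0.123, 0.162 and 0.111 at pH 7.4 and 0.468, 0.438, 0.522 and 0.292 at pH 6.0. These ratios did not overlap and differed by 1.83 on the log2 scale (exact two-sided permutation p = 0.0286, the smallest that 4 against 4 libraries can give; 0.0429 adjusted over the 6 ratios tested).

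The ratio of Psmb9 to Psmb6 in NRK-52E was 0.278, 0.281, 0.342 and 0.298 at pH 7.4 and 0.350, 0.429, 0.440 and 0.455 at pH 6.0, a log2 difference of 0.48 (exact permutation p = 0.0286, adjusted 0.0429). For Psmb10 to Psmb7 the groups overlapped in NRK-52E, with a log2 difference of −0.29 (exact permutation p = 0.114, adjusted 0.137), which ran from −0.401 to −0.148 with single libraries left out. In NRK-49F the Psmb8 to Psmb5 ratio was 1.63, 1.69, 1.54 and 1.64 at pH 7.4 and 2.01, 1.95, 1.84 and 1.99 at pH 6.0. It was higher at pH 6.0 in each of the 4 libraries, by 0.26 on the log2 scale (exact permutation p = 0.0286, adjusted 0.0429). The Psmb10 to Psmb7 ratio there was lower by a log2 difference of −0.52 (exact permutation p = 0.0286, adjusted 0.0429). Psmb9 to Psmb6 overlapped, at −0.05 (exact permutation p = 0.629, adjusted 0.629), and its sign changed to 0.04 without library 12.

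**Figure D2:**
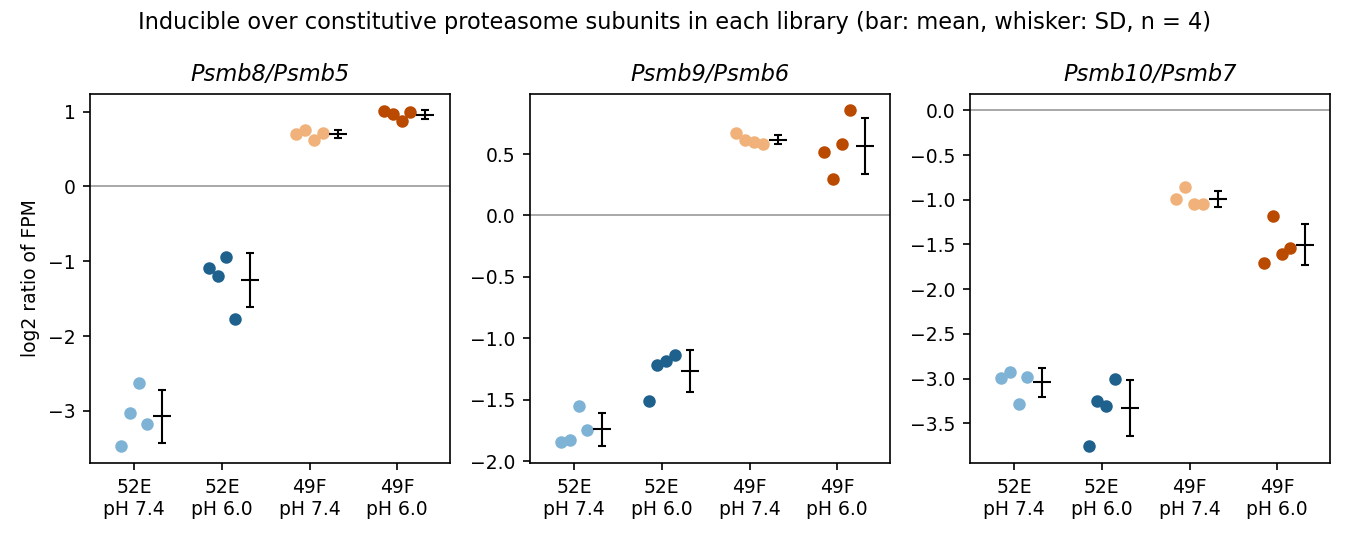
Log2 ratio of FPM of each inducible proteasome subunit to its constitutive counterpart (vertical axes) in the 4 libraries of each group, with the mean (bar) and SD (whisker). The mean Psmb8 to Psmb5 ratio moves from −3.08 to −1.25 in NRK-52E and from 0.70 to 0.96 in NRK-49F.

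Tap1 and Tap2 encode the 2 chains of the peptide transporter of the ER membrane. Tap1 (ENSRNOG00000000457) was at 23.0, 20.03, 18.7 and 19.6 FPM in NRK-52E pH 7.4 and at 273, 229, 230 and 145 FPM in NRK-52E pH 6.0. The lowest acidic library, library 8, still held over 6 times the FPM of the highest control library. Tap1 had the largest rise of the 9 genes, 10.6-fold (log2 3.41, SE 0.18, edgeR adjusted p = 1.38e-07), with 3.51 within set 21 and 3.27 within set 22, and it stood at position 151 from the top of the 13735 genes ordered by fold change. Tap1 in NRK-49F was at 91.1, 93.0, 94.4 and 111 FPM at pH 7.4 and at 129, 116, 129 and 104 FPM at pH 6.0. Library 14 at pH 7.4 lay above library 16 at pH 6.0, and the log2 difference of 0.28 (SE 0.10) was not a DEG call (edgeR adjusted p = 0.0315). It passed both tools without library 16, at 0.35 (edgeR adjusted p = 0.00909), and within set 20, at 0.42 (edgeR adjusted p = 0.00186, with a range of 0.00186 to 0.535 over the alternatives), but not within set 21, at 0.16.

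Tap2 (ENSRNOG00000000455) was at 38.8, 37.0, 33.2 and 36.5 FPM in NRK-52E pH 7.4 and at 133, 100, 110 and 74.1 FPM in NRK-52E pH 6.0. It rose 2.83-fold (log2 1.50, SE 0.15, edgeR adjusted p = 9.67e-06), 1.58 within set 21 and 1.38 within set 22 on the log2 scale, and library 8 was again the lowest of the acidic group. In NRK-49F Tap2 ranged from 107 to 124 FPM at pH 7.4 and from 112 to 133 FPM at pH 6.0, which overlapped (log2 0.10, SE 0.09, edgeR adjusted p = 0.382).

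Tapbp (ENSRNOG00000029500) encodes tapasin, which bridges the transporter and the class I heavy chain. It was at 155, 145, 137 and 145 FPM in NRK-52E pH 7.4 and at 254, 259, 259 and 256 FPM in NRK-52E pH 6.0. In NRK-49F it was at 170, 161, 163 and 190 FPM at pH 7.4 and at 248, 232, 272 and 240 FPM at pH 6.0. The pH groups did not overlap in either line, and Tapbp rose in both, by 0.80 in NRK-52E (SE 0.07, edgeR adjusted p = 3.69e-06) and by 0.52 in NRK-49F (SE 0.09, edgeR adjusted p = 0.000344) on the log2 scale. Within sets 21 and 22 of NRK-52E the values were 0.73 and 0.85. Within sets 20 and 21 of NRK-49F they were 0.54 and 0.52, and the latter was not a DEG call (edgeR adjusted p = 0.0484, with a range of 3.11e-05 to 0.0484 over the alternatives).

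B2m (ENSRNOG00000017123, chromosome 3) encodes β2-microglobulin, the light chain of class I molecules. It was at 856, 800, 838 and 926 FPM in NRK-52E pH 7.4 and at 1983, 1480, 1799 and 1957 FPM in NRK-52E pH 6.0. B2m rose 2.09-fold without overlap of the groups (log2 1.06, SE 0.12, edgeR adjusted p = 1.78e-05), by 1.02 within set 21 and 1.07 within set 22. In NRK-49F it was at 2427, 2380, 2773 and 2211 FPM at pH 7.4 and at 2017, 2386, 2328 and 2584 FPM at pH 6.0. These ranges overlapped over most of their width (log2 −0.09, SE 0.11, edgeR adjusted p = 0.538).

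Erap1 (ENSRNOG00000009997, chromosome 2) encodes the ER aminopeptidase that trims peptides to the length class I molecules accept. It was at 110, 114, 124 and 116 FPM in NRK-52E pH 7.4 and at 151, 174, 166 and 180 FPM in NRK-52E pH 6.0. In NRK-49F it was at 196, 192, 202 and 167 FPM at pH 7.4 and at 269, 288, 287 and 323 FPM at pH 6.0. Erap1 rose in both lines without overlap, 1.43-fold in NRK-52E (log2 0.51, SE 0.09, edgeR adjusted p = 0.000336) and 1.523-fold in NRK-49F (log2 0.61, SE 0.10, edgeR adjusted p = 0.000258). In NRK-52E the call was lost within sets 21 and 22, at log2 values of 0.49 and 0.51 (edgeR adjusted p = 0.0131 and 0.0313), and in NRK-49F within set 21, at 0.71 (edgeR adjusted p = 0.0154), where 2 libraries stood against 2. The edgeR adjusted p of Erap1 ranged from 5.80e-05 to 0.0313 over the alternatives in NRK-52E and from 1.64e-05 to 0.0154 in NRK-49F.

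Nlrc5 (ENSRNOG00000048222), a transactivator of class I genes, had the fewest counts of the 9 tested genes, with 58 to 259 fragments per library. It was at 4.404, 5.57, 5.72 and 5.14 FPM in NRK-52E pH 7.4 and at 4.83, 9.08, 9.18 and 5.03 FPM in NRK-52E pH 6.0. In NRK-49F it was at 7.55, 7.33, 3.82 and 9.17 FPM at pH 7.4 and at 7.84, 8.09, 7.99 and 8.10 FPM at pH 6.0. The pH groups overlapped in both lines, and the difference did not pass the threshold in either (log2 0.41, SE 0.24, edgeR adjusted p = 0.148 in NRK-52E; log2 0.18, SE 0.22, edgeR adjusted p = 0.516 in NRK-49F). Without library 13 the NRK-49F value was −0.013.

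An interaction term over the 16 libraries tested whether pH acted differently on the 2 lines. The response of 6 of the 9 tested genes was more positive in NRK-52E than in NRK-49F, and over all 14679 genes tested 19.3% were called in this direction and 17.5% in the opposite one. Erap1 was the tested member with a more negative response in NRK-52E, and it passed in neither tool nor at an unadjusted p below 0.05 in edgeR. The log2 differences between the 2 responses were 3.12 for Tap1 (SE 0.21, edgeR adjusted p = 3.66e-09), 2.33 for Psmb8 (SE 0.19), 1.55 for Psmb9 (SE 0.17), 1.39 for Tap2 (SE 0.19), 1.13 for B2m (SE 0.16) and 0.93 for Psmb10 (SE 0.23, edgeR adjusted p = 0.00277). The interaction was not called for Tapbp at 0.27 (SE 0.11, edgeR adjusted p = 0.0535), Nlrc5 at 0.23 (SE 0.34, edgeR adjusted p = 0.614) and Erap1 at −0.11 (SE 0.12, edgeR adjusted p = 0.490). With single libraries left out, these values ran from 0.161 to 0.308, from 0.059 to 0.42 and from −0.173 to −0.054, in this order. For Psmb10 the call was lost when libraries were scaled by their totals, at 0.69 (edgeR adjusted p = 0.0165, with a range of 0.00118 to 0.0165 over the alternatives), or 0.94 relative to the median of all genes under that scaling.

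**Figure D3:**
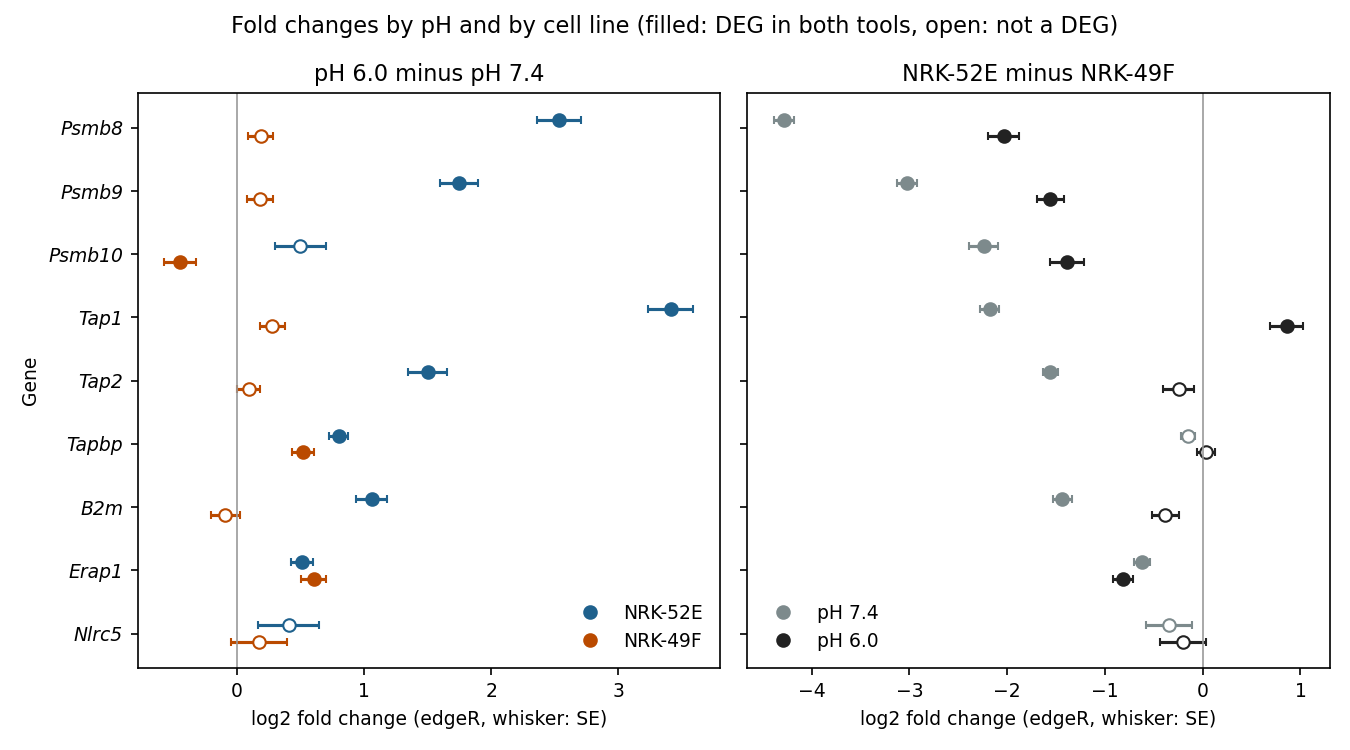
Log2 fold changes (horizontal axes) with SE (whiskers) of 9 genes, for pH 6.0 minus pH 7.4 in each cell line (left) and for NRK-52E minus NRK-49F at each pH (right); filled points are DEGs and open points are not. Tap1 lies at 3.41 in NRK-52E and 0.28 in NRK-49F on the left, and at −2.18 and 0.86 on the right.

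The cell lines were then compared at each pH, which gives the RNA levels of these genes in NRK-52E against NRK-49F. NRK-52E grew on filter inserts and NRK-49F on the well bottom. Cell line and growth surface therefore cannot be told apart, in these comparisons or in the interaction. At pH 7.4, 7 of the 9 tested genes were lower in NRK-52E, while over all 14026 genes tested 33.3% were lower and 33.3% higher. No tested member had a higher level in NRK-52E. Psmb8 was 19.5-fold lower (log2 −4.28, SE 0.10, edgeR adjusted p = 1.79e-11), Psmb9 8.14-fold, Psmb10 4.73-fold, Tap1 4.53-fold, Tap2 2.94-fold, B2m 2.70-fold and Erap1 1.54-fold lower (edgeR adjusted p between 2.39e-10 and 2.82e-05). Tapbp, at log2 −0.15 (edgeR adjusted p = 0.0820), and Nlrc5, at −0.34 (edgeR adjusted p = 0.194), were not called. Nlrc5 passed without library 13, at −0.54 (edgeR adjusted p = 0.0087, with a range of 0.0087 to 0.878 over the alternatives), and Tapbp changed sign to 0.15 when libraries were scaled by their totals, or −0.18 relative to the median of all genes under that scaling. Only set number 21 occurs in both lines, and the labels do not say that the number means the same in each. Among the libraries with this number, the same 7 genes were called, with log2 values from −4.39 for Psmb8 to −0.65 for Erap1. This comparison was added after the data were seen. Over all genes, that fit gave 5669 DEGs, against 9338 with all libraries.

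At pH 6.0 the order of the lines was different for Tap1, while Tap2 had a negative difference at both pH values. Tap1 was 1.81-fold higher in NRK-52E (log2 0.86, SE 0.17, edgeR adjusted p = 0.000615), with 1.10 within set 21, while Psmb8, Psmb9, Psmb10 and Erap1 were lower. Thus 1 of the 9 tested genes was higher and 4 were lower, against 28.6% higher and 31.3% lower of all 13796 genes tested. Psmb8 remained 4.10-fold lower (log2 −2.04, SE 0.16, edgeR adjusted p = 2.58e-07), Psmb9 2.94-fold (log2 −1.56, SE 0.14), Psmb10 2.62-fold (log2 −1.39, SE 0.17) and Erap1 1.75-fold lower (log2 −0.81, SE 0.10). B2m had a log2 difference of −0.38 (SE 0.14, edgeR adjusted p = 0.0269), Tap2 −0.25 (SE 0.16, edgeR adjusted p = 0.182), Nlrc5 −0.20 (SE 0.24, edgeR adjusted p = 0.469) and Tapbp 0.04 (SE 0.09, edgeR adjusted p = 0.751). The Tapbp value was −0.006 without library 12 and −0.015 within set 21. With single libraries left out, Tap2 ran from −0.372 to −0.116 and Nlrc5 from −0.334 to −0.046. Under the other settings Tap2 ran from −0.249 to −0.084.

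The choice of scaling moved these levels by a common amount. With library totals in place of TMM factors, the median log2 fold change of all genes tested was −0.21 for pH in NRK-52E, 0.04 for pH in NRK-49F, 0.34 and 0.12 for the cell lines at pH 7.4 and 6.0, and −0.25 for the interaction. The share of DEGs that were higher moved from 49.7% to 37.6% for pH in NRK-52E, from 48.7% to 53.2% for pH in NRK-49F and from 52.4% to 33.8% for the interaction, and it reached 65.7% for the cell lines at pH 7.4. Relative to that median, Tap1 stood at 3.41, Psmb8 at 2.524 and B2m at 1.05 in NRK-52E. Values relative to the median, here and above, take out this common amount, so they are no separate check of the calls. Erap1 in NRK-52E, at 0.30 with library totals, was then no longer called (edgeR adjusted p = 0.0159) and stood at 0.51 relative to the median.

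The partners of these genes in the pathway were counted from lists of related genes, to be read beside the shares of all genes tested, 28.2% higher and 28.5% lower at pH 6.0 in NRK-52E and 18.4% higher and 19.4% lower in NRK-49F. Class I heavy chains present the peptide at the surface. Of 21 genes with class I heavy-chain names, 17 were tested for a change. The list was taken by name, and whether each product presents peptides was not tested. In NRK-52E 9 rose at pH 6.0, with RT1.A or RT1.CE names apart from RT1.T24.4, and 4 fell (RT1.N2, RT1.N3, RT1.S3 and RT1.T24.1). In NRK-49F 9 rose and 1, RT1.S3, fell. Genes listed to spell out such small counts were chosen after their values were seen. RT1.CE3 had the largest rise in NRK-52E (log2 1.96, SE 0.22, edgeR adjusted p = 1.67e-05) and RT1.CE7 in NRK-49F (log2 0.88, SE 0.10, edgeR adjusted p = 2.43e-05). RT1.S3 had the largest fall in both, −2.06 in NRK-52E and −1.32 in NRK-49F. Values of single heavy chains are uncertain, because these genes have near-identical copies and fragments mapping to several places were counted at each. Genes that share fragments are not independent, which also limits the counts of heavy chains called and their comparison with the shares of all genes. The interaction was called for 6 of 17 heavy chains, 4 more positive in NRK-52E (RT1.A2, RT1.CE3, RT1.CE4 and RT1.CE5) and 2 more negative (RT1.N2 and RT1.N3), against 19.3% and 17.5% of all genes tested.

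Of 11 loading complex and ER folding genes, 7 rose in NRK-52E, and Ganab and P4hb rose in NRK-49F. The largest rise in NRK-52E was that of the ER chaperone Hspa5 (log2 2.27, SE 0.14, edgeR adjusted p = 3.85e-07). It ranged over 723 to 873 FPM at pH 7.4 and over 2889 to 4568 FPM at pH 6.0, with library 8 the lowest of the acidic group, as for Tap1. Ganab, a glucosidase of glycoprotein folding, rose most in NRK-49F (log2 0.48, SE 0.10, edgeR adjusted p = 0.00131). Calr, Canx and Pdia3, which act in folding of the heavy chain or in its loading, were chosen after their values were seen. They had log2 values of 0.29, 0.87 and 0.90 in NRK-52E, of which Calr was not a DEG (edgeR adjusted p = 0.0334). In NRK-49F the values were −0.36, 0.09 and 0.09, and none was a DEG.

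Of 12 other proteasome genes in the count table, 11 rose in NRK-52E, and Psma1 rose in NRK-49F. Psmb6 had the largest rise in NRK-52E, at the 1.26 given above, and Psma1 was at 0.56 in NRK-49F (SE 0.15, edgeR adjusted p = 0.00893). For this list the median log2 fold change was 0.90 in NRK-52E, against −0.01 in NRK-49F, with 0.00 for all genes tested in each. The interaction was called for 9 of the 12, each more positive in NRK-52E, as were 19.3% of all genes tested. Psma3 was not analysed here.

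Among 28 regulators, 25 were tested in NRK-52E, of which 10 rose and 8 fell, while in NRK-49F 1 of 28 rose and 10 fell. Socs1, a feedback inhibitor of cytokine signalling, rose most in NRK-52E (log2 1.60, SE 0.25, edgeR adjusted p = 0.000219), from a mean of 1.99 to 6.12 FPM. Rfx5, the DNA-binding subunit of the complex that Nlrc5 and Ciita act through, fell most, from 104, 116, 124 and 117 FPM to 18.4, 23.9, 21.9 and 25.7 FPM (log2 −2.38, SE 0.12, edgeR adjusted p = 1.19e-07). In NRK-49F the interferon receptor chain Ifnar2 rose (log2 0.82, SE 0.10, edgeR adjusted p = 2.39e-05). Ciita, the transactivator of class II genes, fell there from 10.2, 11.6, 9.28 and 9.88 FPM to 5.05, 3.45, 1.53 and 2.03 FPM (log2 −1.80, SE 0.31, edgeR adjusted p = 0.000476) and had 0 to 3 fragments per library in NRK-52E. The interferon-responsive factor Irf1, chosen after its values were seen, is a known activator of several members. It rose in NRK-52E from 29.7, 28.5, 27.03 and 29.1 FPM to 90.9, 69.8, 65.3 and 62.7 FPM (log2 1.32, SE 0.13, edgeR adjusted p = 5.92e-06). In NRK-49F it fell from 113, 114, 107 and 104 FPM to 72.3, 62.5, 78.8 and 74.3 FPM (log2 −0.62, SE 0.09, edgeR adjusted p = 0.000116).

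Class I-like genes were counted as well, namely Fcgrt, Hfe, Cd1d1 and Mr1, whose products bind B2m, and Azgp1, whose product folds without it. Of these 5, 4 fell in NRK-52E, namely Azgp1, Cd1d1, Hfe and Mr1. The largest fall was that of Azgp1, from a mean of 5.86 to 0.0521 FPM (log2 −6.80, SE 0.41, edgeR adjusted p = 3.13e-07), and Hfe, which binds the transferrin receptor, fell in NRK-49F (log2 −0.63, SE 0.10, edgeR adjusted p = 0.000327), where 3 of the 5 were tested. Of 10 MHC class II genes, 2 were tested in NRK-52E, and RT1.DMa rose (log2 1.17, SE 0.26, edgeR adjusted p = 0.00197). In NRK-49F 6 of 7 tested fell, with RT1.Da at −2.56 (SE 0.24, edgeR adjusted p = 3.99e-06), while Tapbp and Erap1 rose there. At pH 7.4 Cd74, the invariant chain, chosen after its values were seen, had 16 fragments over the 4 NRK-52E libraries and averaged 107 FPM in NRK-49F.

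Of 6 cytosolic peptidases, which shorten or destroy peptides before transport, 2 rose (Npepps and Nrdc) and 3 fell (Blmh, Lap3 and Thop1) in NRK-52E. In NRK-49F 3 rose (Nrdc, Thop1 and Tpp2) and 2 fell (Blmh and Npepps). Nrdc rose most in NRK-52E (log2 1.15, SE 0.09, edgeR adjusted p = 1.83e-06) and Thop1 in NRK-49F (log2 0.88, SE 0.11, edgeR adjusted p = 4.40e-05). Blmh had the largest fall in both lines, at −0.995 in NRK-52E (edgeR adjusted p = 0.000106) and −0.47 in NRK-49F (edgeR adjusted p = 0.00267).

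The members share position as well as function. By the deposited annotation, 5 of the 10, Tap1, Tap2, Tapbp, Psmb8 and Psmb9, are on chromosome 20, which carries the rat MHC, and Psmb10 and Nlrc5 are on chromosome 19. RefSeq promoter windows of assembly GRCr8, from 250 bases before to 50 after the transcription start, were matched by symbol for 8 of the 10, without Nlrc5 and Erap1. Each motif was searched on both strands and compared with the 33469 windows of the table. The core of the interferon-stimulated response element (ISRE), GAAANNGAA, was in 6 of the 8 windows, those of B2m, Tap1, Tap2, Tapbp, Psmb8 and Psmb10, and in 9.71% of all windows. Tapbp held a pair of overlapping matches, and Psmb10 had 3 matches, of which a pair overlapped.

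The other motifs were in fewer of the 8 windows. The NF-κB forms GGNNNTTCC or GGNNNTCCC were in 4 of 8 (B2m, Tap1, Tapbp and Psme1; 30.7% of all windows), CCAAT in 3 (B2m, Psmb8 and Psmb9; 37.5%), the STAT form TTCNNNGAA in 1 (Psmb8; 8.87%) and the antioxidant response element core TGANNNNGC in 4 (B2m, Tap2, Tapbp and Psmb9; 40.5%). The cyclic AMP response element TGACGTCA was in none (1.83%), and its part TGACG, which overlaps it, was in 2 (B2m and Psmb9; 21.2%). These matches describe letters in the windows. The windows of Tap1 and Psmb9 face away from each other and share 44 bases, with the start sites 457 bases apart, and both genes rose in NRK-52E. The sequences of the 5 genes with the largest rise in NRK-52E are given 5′ to 3′ on the strand of the gene, with matches of the ISRE core in capitals; Psmb9 has none.
B2m, chr3:129549080-129549379, + strand: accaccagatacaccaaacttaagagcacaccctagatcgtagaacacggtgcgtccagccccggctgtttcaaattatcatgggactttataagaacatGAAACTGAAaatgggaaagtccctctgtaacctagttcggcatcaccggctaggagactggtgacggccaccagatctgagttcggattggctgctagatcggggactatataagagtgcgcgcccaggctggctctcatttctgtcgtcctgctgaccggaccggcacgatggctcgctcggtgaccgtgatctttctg
Tap1, chr20:4668494-4668793, - strand: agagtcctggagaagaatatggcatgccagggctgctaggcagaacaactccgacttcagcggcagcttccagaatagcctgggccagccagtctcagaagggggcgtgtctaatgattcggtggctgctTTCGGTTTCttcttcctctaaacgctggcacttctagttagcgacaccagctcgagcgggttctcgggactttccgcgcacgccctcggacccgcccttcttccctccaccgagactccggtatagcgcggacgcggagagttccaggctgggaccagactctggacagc
Psmb9, chr20:4668750-4669049, + strand: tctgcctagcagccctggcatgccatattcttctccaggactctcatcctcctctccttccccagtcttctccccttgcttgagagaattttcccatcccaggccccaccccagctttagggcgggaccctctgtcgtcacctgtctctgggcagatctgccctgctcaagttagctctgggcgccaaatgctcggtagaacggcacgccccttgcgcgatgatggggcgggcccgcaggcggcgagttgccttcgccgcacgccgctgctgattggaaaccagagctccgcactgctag
Psmb8, chr20:4656982-4657281, - strand: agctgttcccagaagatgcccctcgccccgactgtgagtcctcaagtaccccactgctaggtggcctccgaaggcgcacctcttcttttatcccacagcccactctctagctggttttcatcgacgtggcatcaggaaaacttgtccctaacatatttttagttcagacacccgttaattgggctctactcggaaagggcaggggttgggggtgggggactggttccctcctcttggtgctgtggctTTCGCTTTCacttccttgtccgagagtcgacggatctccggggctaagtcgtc
Tap2, chr20:4652247-4652546, - strand: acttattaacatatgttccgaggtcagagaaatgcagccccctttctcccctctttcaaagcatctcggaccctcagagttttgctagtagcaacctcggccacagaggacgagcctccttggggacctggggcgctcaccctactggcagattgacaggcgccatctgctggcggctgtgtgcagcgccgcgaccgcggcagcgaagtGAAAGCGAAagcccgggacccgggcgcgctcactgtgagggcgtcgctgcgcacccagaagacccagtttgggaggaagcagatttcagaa

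**Figure D4:**
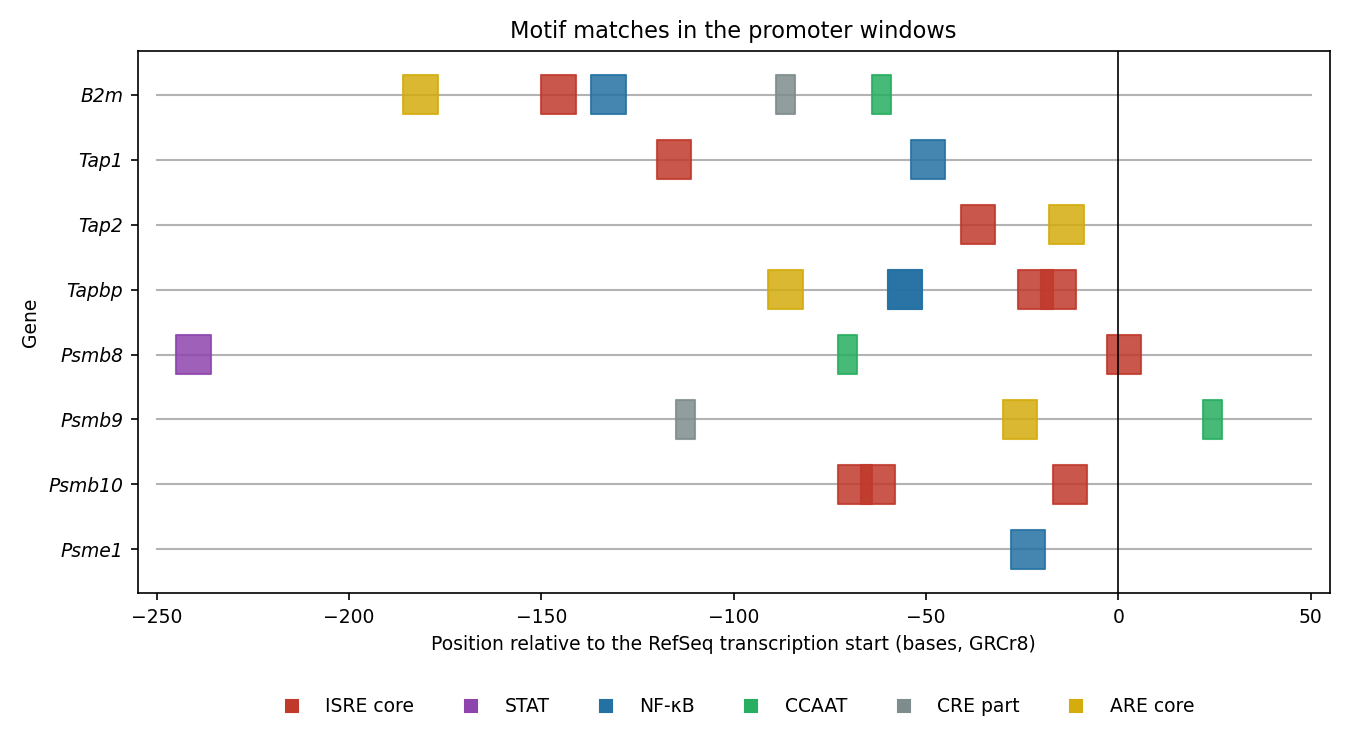
Motif matches (coloured boxes, by motif) along the promoter windows of 8 genes, with the position from the RefSeq transcription start in bases on the horizontal axis. The ISRE core lies at −120 to −112 in Tap1, at −41 to −33 in Tap2 and at −3 to 5 in Psmb8, and it is not in the windows of Psmb9 and Psme1.

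The genes with the pattern most like those of B2m, Tap1 and Nlrc5 were sought among 9754 genes with a mean of at least 10 FPM, by Pearson's r of log2(FPM + 1) over the 16 libraries. This is a description, since the libraries fall into 4 groups and share their depth and scaling. For B2m these were Nupl2 (r = 0.990), Txndc12 (0.987) and Naxe (0.984), and for Tap1 they were Slc35e4 (0.993), Praf2 (0.988) and Sqstm1 (0.987). Sqstm1, the autophagy receptor p62, averaged 399 and 1346 FPM in NRK-52E at pH 7.4 and 6.0 and 997 and 1056 FPM in NRK-49F. For Nlrc5 the values were lower, with Rab11fip5 at 0.875, AABR07063281.1 at 0.873 and Cep164 at 0.858.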

How the data were processed

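RNA of 16 libraries was compared, and all entered the fits. From poly(A)-enriched RNA, the authors sequenced read pairs of 2 × 150 bp and mapped them to rat genome rn6. Their methods name tophat2, while the submitters' processing notes name HISAT2 2.1.0. Fragments were counted by featureCounts over the exons of Ensembl genes. A fragment mapping to several places was counted at each, and use of strand is not named, so overlapping genes on opposite strands cannot be separated. The counts used here are those the authors deposited, without normalization.

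FPM came from edgeR (function cpm), with TMM factors of a joint normalization of the 16 libraries. Each comparison was fitted in its own 8 libraries, and the interaction in 16, with edgeR 4.0.16 (quasi-likelihood test, TMM, filterByExpr) and DESeq2 1.42.0 (Wald test) in R 4.3.3. Benjamini-Hochberg adjustment covered the genes tested, and a DEG had an FDR below 0.01 in both. SE is |log2 fold change| over the square root of edgeR's F. The subunit ratios were tested by exact two-sided permutation, adjusted over 6 ratios. The fits were tested on simulated counts, but the outcome is not reported here and no result rests on it. Members and lists were chosen with earlier results of these data known. Named beside the members are the DEGs of each list with the largest rise and the largest fall in each cell line, Psmb5, Psmb6, Psmb7, Psme2 and Ciita, and the 3 genes most like B2m, Tap1 and Nlrc5 by correlation. Genes named outside this rule, markers included, are marked as chosen after their values were seen. The lists were class I heavy chains, loading complex and ER folding, other proteasome genes, regulators, other class I-like genes, class II genes, cytosolic peptidases, and markers of epithelial, proximal tubule, fibroblast, leukocyte and endothelial cells.

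The alternatives tried were DESeq2's size factors, library totals, all genes with a count in place of the low-count filter, 1 CPM in 4 libraries as the filter, 16 libraries in one fit, the further number in the library names as covariate or the pH effects within each number, each tool alone, an FDR of 0.05, FPM + 1 in the ratios, and each library left out. Comparing the cell lines within number 21 was added after seeing the data. Library totals were 16201084 to 34784862 fragments. Replicate libraries differed beyond counting noise, with a chi-square per degree of freedom of 6.12 or more for each pair. Library 8 had 43.67, 92.19 and 71.53 against libraries 3, 4 and 7, which had 9.106 to 39.38 among themselves. The highest value in NRK-49F was 62.15, for libraries 11 and 16. Without library 8 there were 8914 DEGs for pH in NRK-52E, against 7793 with all. Exon lengths were not used, so FPM does not give the order of different genes by number of transcripts.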

Additional observations from a re-analysis of the deposited data

Results flagged for a closer look

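The response to pH differed between the cell lines by the interaction test for 6 genes. The log2 fold change in NRK-52E minus that in NRK-49F was 1.13 for B2m, 3.12 for Tap1, 1.39 for Tap2, 2.33 for Psmb8, 1.55 for Psmb9 and 0.93 for Psmb10. Fold changes had opposite signs for Psmb10 and B2m. Psmb10 was at 0.50 in NRK-52E, where it was not a DEG and was 0.312 without library 8, and −0.45 in NRK-49F. B2m was at 1.06 in NRK-52E and −0.09 in NRK-49F, where it was not a DEG. The NRK-49F value of B2m ran from −0.14 to −0.015 with single libraries left out.

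In NRK-49F pH 7.4, library 14 stood apart for Tap1, at 111.3 FPM against 91.1 to 94.4 FPM in the other 3 libraries. Library 13 stood apart in the same group for Psmb9, at 157.1 FPM against 122 to 127 FPM. Of 48 sets of 4 values checked for such a gap, 2 had one, and chance gives about 1 in 20, or 2.4. Without library 14 or library 13 the pH responses of these genes in NRK-49F were still not DEGs.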

How the results depend on the processing

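Of 864 fold changes of the members under other settings, 833 had the direction and the call reported, 20 lost a call, 7 gained one and 4 changed sign. The calls lost were 14 of Psmb10 and 1 each of Tapbp and Erap1 for pH in NRK-49F, 3 of Erap1 for pH in NRK-52E and 1 of Psmb10 in the interaction. The signs changed for Nlrc5 for pH in NRK-49F without library 13 (−0.013, with 0.334 as the highest value when single libraries were left out), for Tapbp between lines at pH 7.4 with library totals (0.154), and for Tapbp between lines at pH 6.0 without library 12 (−0.006, with 0.069 as the highest) and within number 21 (−0.015). None of these 4 was a DEG call under either setting. The log2 difference of the Psmb9 to Psmb6 ratio in NRK-49F ran from −0.148 to 0.039 with single libraries left out. The cause of these changes of sign was not tested.

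Leaving out single libraries gave 6789 to 8914 DEGs for pH in NRK-52E, against 7793 with all, and 4125 to 4992 for pH in NRK-49F, against 5039. With 2 against 2 libraries, there were 5244 DEGs in NRK-52E within number 21 and 2818 within number 22, 4680 in NRK-49F within number 20 and 1980 within number 21, and between lines within number 21, 5669 at pH 7.4, against 9338 with all, and 7374 at pH 6.0, against 8251. In NRK-49F, 4 members were called within number 20. Within number 21 the members called fell from 3 to 0 in edgeR, with 1 by DESeq2 and, at an unadjusted p below 0.05 in edgeR, 2 higher and 1 lower. These fits had equal numbers of libraries and gave different counts, and the cause was not tested. Single libraries could not be paired, because no library number occurs in more than 1 group. The labels do not say which NRK-52E and NRK-49F libraries shared wells, and the fits treated the lines as independent. With the further number as a covariate, there were 7551 DEGs for pH in NRK-52E and 5211 in NRK-49F. Low counts kept Psme1, at 0 to 7 fragments, out of the tests.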
